A study of Mus musculus with 8 samples.

Results

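The integrated stress response is the program by which a cell slows protein synthesis and switches on repair genes when amino acids run short, proteins misfold, mitochondria fail or a virus is present. Any of a family of kinases phosphorylates the translation initiation factor eIF2, most translation falls, and the mRNA of the transcription factor ATF4 is then translated better because of short reading frames in its leader. ATF4 turns on genes for amino acid synthesis and uptake, and with its target CHOP it turns on genes that shape survival, redox state and growth signaling. The growth kinase mTORC1 has also been reported to raise ATF4 output in cultured cells, while several ATF4 targets restrain mTORC1. Because ATF4 is set largely at translation, the mRNA values below do not measure its protein.

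The 10 genes described here were taken as a list by name: Gdf15, Atf4, Ddit3, Trib3, Chac1, Atf3, Atf5, Asns, Sesn2 and Ddit4. All 10 were found among the 23993 genes of the expression table, and all 10 passed the filter on low values, with a mean of at least 1 FPKM (fragments scaled to transcript length and to the library's mapped fragments) in each genotype. RNA was sequenced from whole thoracic aortas of C57BL/6 males aged 24 weeks. For 4 knockout aortas the mice were Tsc1 fl/fl, with both alleles floxed, and for 4 control aortas they carried wild-type Tsc1. Mice of both genotypes carried Myh11-CreERT2, a tamoxifen-inducible Cre driven by the smooth muscle myosin promoter, with the mT/mG color reporter, and received tamoxifen at 1.5 weeks. Tsc1 encodes hamartin, a brake on mTORC1, so the comparison asks how the aorta differs when that brake is targeted in smooth muscle. How far Tsc1 was lost in smooth muscle or kept in other cells of the wall was not measured.

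The targeted gene was lower in the libraries labelled knockout. Tsc1 (chromosome 2, 28641228 to 28691167) had 2.99, 3.58, 3.37 and 3.71 FPKM in knockouts 1 to 4, against 4.03, 4.82, 4.95 and 6.32 FPKM in controls 1 to 4, without overlap (log2 difference -0.44, SE 0.12, limma adjusted p = 0.019). Tsc1 was not called among odd-numbered libraries (adjusted p = 0.0807), among even-numbered ones (adjusted p = 0.0590) or without control 2 and knockout 3 (adjusted p = 0.0837). Tsc2, not the targeted gene, averaged 32.7 ± 1.23 FPKM in knockouts and 39.4 ± 3.55 FPKM in controls. It was also lower without overlap (log2 difference -0.26, limma adjusted p = 0.0214), though not called without control 2 and knockout 3 (adjusted p = 0.0738). All knockouts were below all controls for 15.6% of tested genes, so a lower Tsc1 alone says little about the labels. Odd and even library numbers are given below because libraries of the 2 genotypes deviated from their group means together when both numbers were odd or both even (r across genes from 0.0160 to 0.173 in all 8 such pairs), and oppositely otherwise (-0.193 to -0.0547 in all 8). Because each genotype was centered on its own mean, positive values in 1 set of pairs push the other set negative, so the sets are not separate evidence. No label says what a number marks, genes are not independent replicates, and the subsets hold only 2 aortas per genotype. Smooth muscle markers summed to between 11550 and 15466 FPKM in knockouts and between 17544 and 17873 FPKM in controls, so the labelled tissue was present in every library. Summed markers were also lower without overlap for endothelium (87.5 to 148 FPKM in knockouts, 167 to 241 FPKM in controls), adventitial fibroblasts (283 to 384 and 401 to 617 FPKM) and Schwann cells (5.34 to 9.80 and 9.99 to 15.2 FPKM). Not every marker followed its sum. Called lower were 4 of 7 tested markers of smooth muscle, 4 of 6 of endothelium, 3 of 6 of adventitial fibroblasts and 3 of 4 of Schwann cells. Of the smooth muscle calls, Acta2 and Tagln were lost in limma without the filter on low values (adjusted p = 0.328 and 0.12). These 2 genes made up most of the smooth muscle sum. The adventitial markers Pdgfra and Col14a1 had positive log2 differences (0.26 and 0.34), overlapped and were not called. Pecam1 made up most of the endothelial sum (53.1 to 94.1 FPKM in knockouts, 106 to 172 FPKM in controls). In such bulk tissue fewer cells of a type and less RNA per cell cannot be told apart. Macrophage markers overlapped (212 to 293 FPKM in knockouts, 253 to 362 FPKM in controls), as did T, B and NK cell markers (0.805 to 5.61 and 1.31 to 6.14 FPKM), fat cell markers (26.3 to 114 and 37.9 to 178 FPKM) and red blood cell markers (11.3 to 184 and 36.1 to 446 FPKM). Striated muscle markers overlapped too (3.68 to 29.0 FPKM in knockouts, 6.79 to 161 FPKM in controls), with control 4 the highest. Their sum mixed opposite differences. Ckm was called lower without overlap (log2 difference -1.93, limma adjusted p = 0.0172). Myh6 made up most of the sum in knockouts 1 and 4 (25.6 and 17.0 FPKM) and was not called (log2 difference 2.12).

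Of the 10 genes, Gdf15 and Sesn2 rose in the knockout aortas, Atf4 and Atf5 fell, and the other 6 did not pass the test. Calls were made in limma where the p-value, adjusted by Benjamini-Hochberg over all 12107 tested genes, was under 0.05. The 2 higher calls of 10 stand against 17.1% of all tested genes called higher, and the 2 lower calls against 15.0% called lower, so the share of calls in the list was near that of the transcriptome. The median log2 difference of the 10 genes was 0.11, against 0.01 for all tested genes. The same 4 genes were those without overlap between genotypes, which held for 33.9% of all tested genes (18.3% with all knockouts above all controls, 15.6% with all below). After rescaling to TPM 68.6% of all calls were higher, against 53.3% here, and these 4 calls kept their direction.

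**Figure D1:**
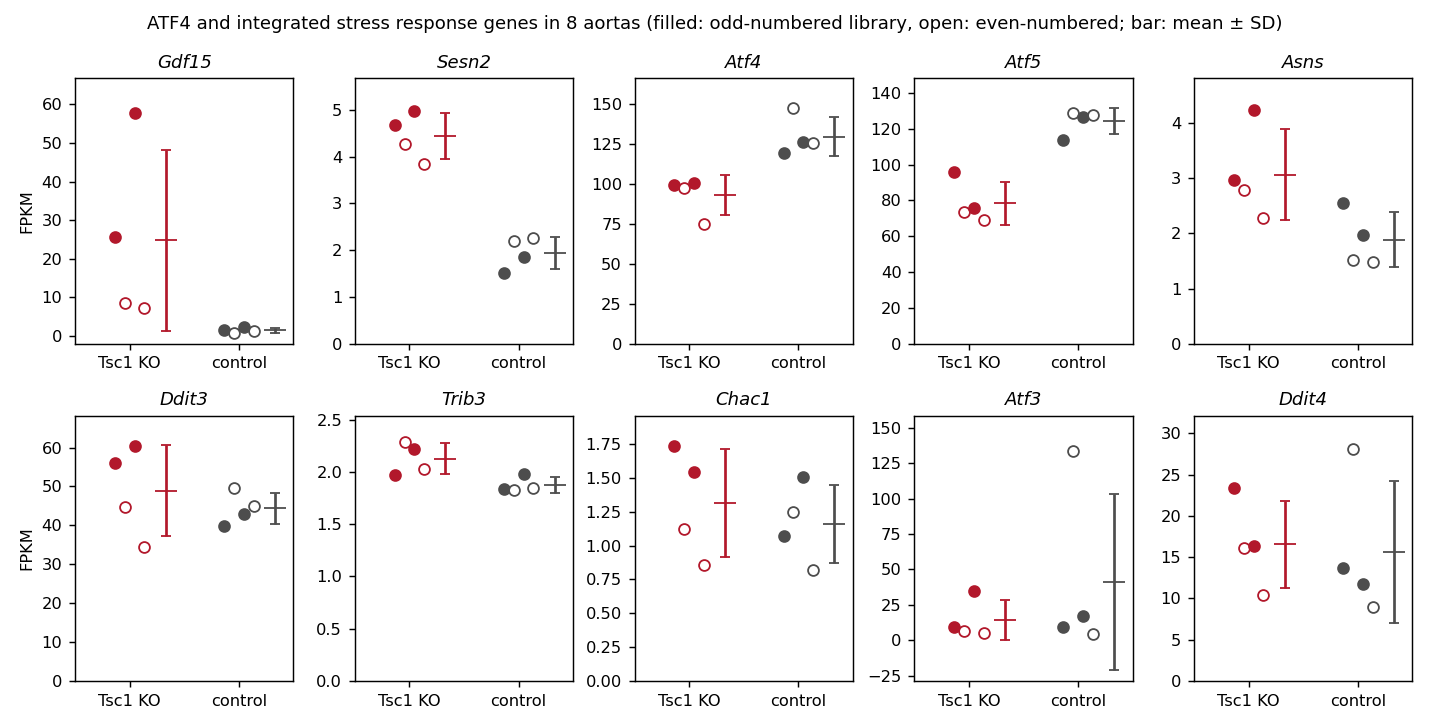
FPKM of the 10 genes in each aorta, Tsc1 knockouts in red at the left and controls in gray at the right of each panel; filled points are odd-numbered and open points even-numbered libraries, and bars give mean ± SD (n = 4 per genotype). Gdf15 and Sesn2 lay above all controls and Atf4 and Atf5 below all controls, while Atf3 had 134 FPKM in control 2.

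**Figure D2:**
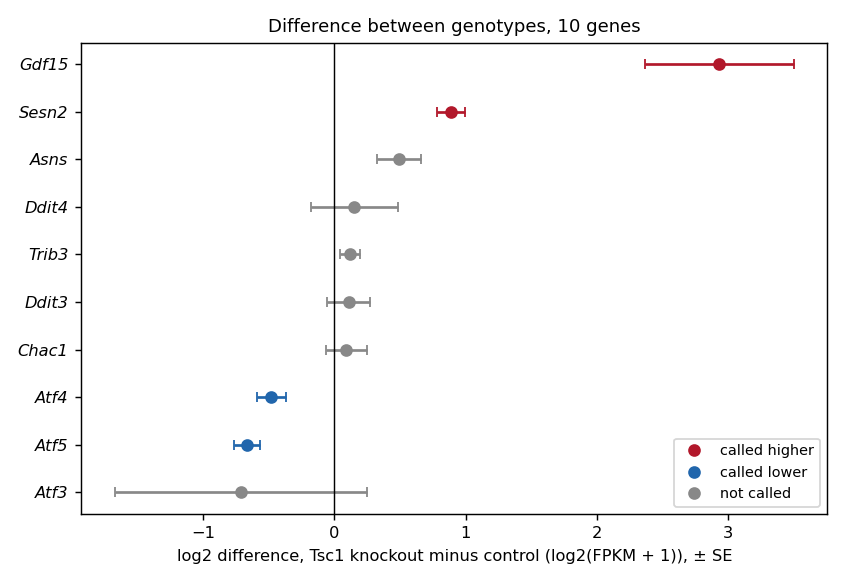
Log2 difference, knockout minus control, on the log2(FPKM + 1) scale with its SE for the 10 genes (n = 4 per genotype); red marks genes called higher, blue genes called lower and gray genes not called. Gdf15 stood at 2.93 and Atf3, with the widest SE (0.96), at -0.71.

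Gdf15 encodes a secreted stress hormone of the TGF-beta superfamily that acts on the hindbrain receptor GFRAL, and it is a target of ATF4 and CHOP, of p53 and of TFEB and TFE3. It lies on chromosome 8, 70629393 to 70632456. Gdf15 had 25.6, 8.67, 57.6 and 7.29 FPKM in knockouts 1 to 4, against 1.46, 0.901, 2.41 and 1.32 FPKM in controls 1 to 4. Every knockout was above every control, and knockouts 1 and 3 were far above knockouts 2 and 4. The means were 24.8 ± 23.4 FPKM in knockouts and 1.52 ± 0.638 FPKM in controls (SD, n = 4 each), a ratio of 16.3 (log2 difference 2.93, SE 0.57, adjusted p = 0.0048). Counting Gdf15 itself, 8 genes were called higher with a log2 difference at least that large. Gdf15 was called among odd-numbered libraries (3.77) and among even-numbered ones (2.09).

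Sesn2 encodes sestrin 2, a leucine-binding protein that restrains mTORC1 through GATOR2 and is induced by ATF4, NRF2 and p53. Its gene is on chromosome 4, 132492032 to 132510501. Sesn2 had 4.67, 4.28, 4.98 and 3.85 FPKM in knockouts 1 to 4 and 1.51, 2.19, 1.84 and 2.25 FPKM in controls 1 to 4. The knockouts lay close together, all above the highest control. The means were 4.44 ± 0.493 FPKM in knockouts and 1.95 ± 0.344 FPKM in controls, a ratio of 2.28 (log2 difference 0.89, SE 0.11, adjusted p = 0.000493). An annotated antisense-class transcript, Gm12981, overlaps 6089 bases of Sesn2, is not a row of the expression table, and its part in the Sesn2 value was not tested.

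Atf4 itself (chromosome 15, 80255184 to 80257541) had 99.1, 97.7, 101 and 74.8 FPKM in knockouts 1 to 4, against 119.6, 147, 126 and 126 FPKM in controls 1 to 4. All knockouts were below all controls, with knockout 4 the lowest. The means were 93.1 ± 12.3 FPKM in knockouts and 129.7 ± 12.2 FPKM in controls, a ratio of 0.718 (log2 difference -0.48, SE 0.11, adjusted p = 0.00976). Atf4 was called lower among odd-numbered libraries (-0.30) and among even-numbered ones (-0.66).

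Atf5 encodes a factor closely related to ATF4 that is also translated better under eIF2 phosphorylation and is tied to mitochondrial protein stress. It lies on chromosome 7, 44812256 to 44816658. Atf5 had 95.9, 73.3, 75.5 and 69.1 FPKM in knockouts 1 to 4 and 114, 129, 127 and 128 FPKM in controls 1 to 4. All knockouts were again below all controls. The means were 78.5 ± 11.9 FPKM in knockouts and 124 ± 7.16 FPKM in controls (log2 difference -0.67, SE 0.10, adjusted p = 0.00142). Among odd-numbered libraries Atf5 was not called (-0.49, adjusted p = 0.0606). Its locus overlaps 571 bases of Nup62 on the other strand. The strand setting of the quantification is not given in the sources used here, so reads of the overlap cannot be told apart. Nup62 had means of 11.3 FPKM in knockouts and 11.7 FPKM in controls and was not called (log2 difference -0.04). Summed smooth muscle, endothelial, adventitial fibroblast and Schwann cell markers were lower in knockouts as well, and their part in the lower Atf4 and Atf5 was not tested.

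Ddit3 encodes CHOP, the ATF4-induced factor of prolonged stress, on chromosome 10, 127290774 to 127296288. Ddit3 had 56.1, 44.6, 60.5 and 34.4 FPKM in knockouts 1 to 4 and 39.9, 49.6, 42.9 and 45.0 FPKM in controls 1 to 4. Knockouts 1 and 3 were above all controls, knockout 4 was below all of them, and the genotypes overlapped (log2 difference 0.11, SE 0.16, adjusted p = 0.641). Among odd-numbered libraries Ddit3 was called higher (0.48, adjusted p = 0.0144), while among even-numbered ones it differed by -0.26 (adjusted p = 0.22), and the difference between these values was not tested.

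Among the 14 genes of the IRE1 and ATF6 arms of the unfolded protein response, 0 were called in limma, and 2 of them, Atf6 and Dnajb9, had an unadjusted p under 0.05. The list's summed level was 1388, 862, 1327 and 752 FPKM in knockouts 1 to 4, against 970 (control 1), 894 (control 2), 1067 (control 3) and 940 (control 4) FPKM. Hspa5, the main chaperone of the endoplasmic reticulum, had 519.6, 263, 476 and 206 FPKM in knockouts 1 to 4, against 288, 261, 349 and 294 FPKM in controls 1 to 4. The 2 odd-numbered knockouts thus had the highest Hspa5, and the 2 genotypes overlapped.

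Atf3 encodes a stress-induced repressor that is also an immediate early gene, one switched on within minutes by growth factors, depolarization or tissue handling. Its annotated span on chromosome 1 is 191170296 to 191218039. Atf3 had 9.26, 6.46, 35.1 and 5.34 FPKM in knockouts 1 to 4 and 9.22, 134, 17.0 and 4.05 FPKM in controls 1 to 4. Knockout 3 and control 2 stood far above the other libraries of their genotype, and the difference was not called (log2 difference -0.71, SE 0.96, adjusted p = 0.607). Without control 2 it was 0.24 (adjusted p = 0.821).

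Of the 8 genes of an immediate early list, 8 were highest in knockout 3 among knockouts and 7 in control 2 among controls. The exception was Junb, with 11.3, 22.1, 12.7 and 27.7 FPKM in controls 1 to 4 and thus highest in control 4. Fosb had 2.06, 1.06, 21.4 and 0.789 FPKM in knockouts 1 to 4, against 2.47, 47.7, 5.44 and 1.96 FPKM in controls 1 to 4. Jun, a partner of FOS proteins, had 35.0, 27.8, 80.9 and 26.2 FPKM in knockouts 1 to 4, against 37.8, 107, 47.1 and 28.3 FPKM in controls 1 to 4. The summed level of the list was 650 FPKM in knockout 3, with 120.4 to 152 FPKM in the other knockouts, and 459 FPKM in control 2, with 127 to 185 FPKM in the other controls. Of the 8, 0 were called in limma and 0 had an unadjusted p under 0.05, and their part in the Atf3 and Ddit4 values was not tested. Without both libraries, an alternative chosen after seeing the data, Gdf15 and Sesn2 were still called higher (log2 differences 2.26 and 0.88) and Atf4 and Atf5 lower (-0.46 and -0.63).

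**Figure D3:**
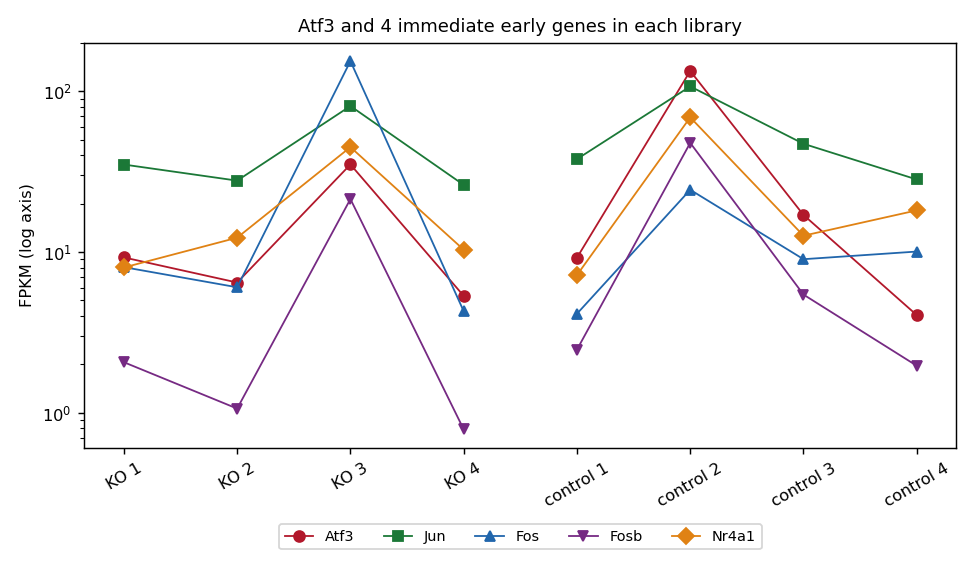
FPKM on a log axis of Atf3 and of Jun, Fos, Fosb and Nr4a1, 4 of the 8 listed immediate early genes, in knockouts 1 to 4 at the left and controls 1 to 4 at the right; lines only join libraries of a genotype. Knockout 3 and control 2 were the highest of their genotype for all 5 genes.

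Ddit4 encodes REDD1, an inhibitor of mTORC1 that acts through the TSC complex and is induced by hypoxia, glucocorticoids and ATF4. It lies on chromosome 10, 59949669 to 59951834. Ddit4 had 23.3, 16.1, 16.4 and 10.5 FPKM in knockouts 1 to 4 and 13.7, 28.2, 11.7 and 8.94 FPKM in controls 1 to 4. Control 2 was the highest of all 8 libraries, and the difference was not called (log2 difference 0.15, SE 0.33, adjusted p = 0.759). It was 0.46 without control 2 (adjusted p = 0.205).

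Asns encodes asparagine synthetase, a classical ATF4 target, on chromosome 6, 7675169 to 7693254. Asns had 2.97, 2.79, 4.24 and 2.28 FPKM in knockouts 1 to 4 and 2.56, 1.52, 1.98 and 1.49 FPKM in controls 1 to 4. Of the knockouts, 3 were above every control, and knockout 4 lay under control 1. The means were 3.07 ± 0.831 FPKM in knockouts and 1.89 ± 0.501 FPKM in controls (log2 difference 0.49, SE 0.17, adjusted p = 0.0508), just outside the threshold. Asns was called higher without knockout 4 (0.59, adjusted p = 0.0357) or without control 1 (0.60, adjusted p = 0.0298). Among even-numbered libraries it was called (0.49, adjusted p = 0.0398), but not among odd-numbered ones (0.49, adjusted p = 0.113). In all, Asns was called in 10 of the 22 alternatives that tested it, those with the replicate number or with odd or even numbers as a term among them (adjusted p from 0.0086 to 0.211 over the 22).

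Trib3 encodes a pseudokinase that inhibits AKT and ATF4, on chromosome 2, 152337422 to 152344032. Trib3 had 1.97, 2.28, 2.22 and 2.03 FPKM in knockouts 1 to 4, against 1.84, 1.82, 1.98 and 1.84 FPKM in controls 1 to 4. The groups overlapped by knockout 1 and control 3 alone, and the difference was not called (log2 difference 0.12, SE 0.07, adjusted p = 0.252).

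Chac1 encodes a glutathione-degrading enzyme downstream of ATF4, also on chromosome 2, 119351229 to 119354381. Chac1 had 1.74, 1.12, 1.54 and 0.855 FPKM in knockouts 1 to 4, against 1.07, 1.25, 1.50 and 0.818 FPKM in controls 1 to 4. It was the lowest of the 10 genes in each genotype, and the groups overlapped widely (log2 difference 0.09, SE 0.15, adjusted p = 0.681).

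On the FPKM scale, which divides by transcript length, the order of mean levels in knockouts was Atf4, Atf5, Ddit3, Gdf15, Ddit4, Atf3, Sesn2, Asns, Trib3 and Chac1. In controls it was Atf4, Atf5, Ddit3, Atf3, Ddit4, Sesn2, Asns, Trib3, Gdf15 and Chac1. Neighbors whose ranges did not overlap were Atf5 over Ddit3, Atf3 over Sesn2, Asns over Trib3 and Trib3 over Chac1 in knockouts, and Atf5 over Ddit3 and Ddit4 over Sesn2 in controls. The ranges of all other neighbors overlapped. Asns and Trib3 nearly touched in knockouts, where the lowest Asns value was 2.28207 FPKM (knockout 4) and the highest Trib3 value 2.28202 FPKM (knockout 2). Gdf15 was thus at rank 4 in knockouts and next to last in controls, where it stood at the 5.53 percentile of tested genes.

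ATF4 and C/EBP proteins bind a composite element whose core was searched here as TGATGNAA on both strands, in the 250 bases before each RefSeq start, with sequences from RefSeq on GRCm38.p6. All 10 genes had a promoter in that table, 3 of them with a match, against 3.45% of all 32851 promoters and 2.36% of the 9096 tested genes with one. The matches, before the RefSeq starts of Asns, Chac1 and Atf3, are shown because these stress genes were not called. RefSeq starts lie downstream of the 5′ ends of the GENCODE spans given above, by 45 bases for Asns, 13 bases for Chac1 and 34706 bases for Atf3. The Asns stretch therefore overlaps a GENCODE exon of Asns, the Atf3 stretch lies inside the GENCODE span of Atf3 but in no exon of it, and the Chac1 stretch lies before the Chac1 span. Each is printed 5′ to 3′ on the strand of its gene, with the match in capitals. The Asns stretch (chr6:7693214-7693243, minus strand) has its match starting 23 bases before the RefSeq start, and the Chac1 stretch (chr2:119351013-119351092, plus strand) and Atf3 stretch (chr1:191183400-191183479, minus strand) have theirs at 193 and 110 bases, both on the opposite strand.
Asns: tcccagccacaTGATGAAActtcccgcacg
Chac1: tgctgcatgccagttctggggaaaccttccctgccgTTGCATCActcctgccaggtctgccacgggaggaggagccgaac
Atf3: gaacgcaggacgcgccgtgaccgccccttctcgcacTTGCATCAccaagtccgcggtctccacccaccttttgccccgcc
The other 7 genes, Gdf15, Sesn2, Atf4 and Atf5 among them, had no such letters in this window.

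Upstream of ATF4, of 8 genes of the eIF2 kinases and their regulators 4 rose and 1 fell, with a median log2 difference of 0.21. This and the list counts below stand against 17.1% of all tested genes called higher and 15.0% called lower. Eif2ak1 encodes HRI, the kinase activated by heme shortage and mitochondrial stress. It had 25.7, 24.3, 21.0 and 23.8 FPKM in knockouts 1 to 4, against 16.6, 17.6, 15.7 and 16.2 FPKM in controls 1 to 4, without overlap (log2 difference 0.49, SE 0.07, adjusted p = 0.00109).

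Eif2ak4 encodes GCN2, the sensor of uncharged tRNA. It had 5.66, 4.97, 5.41 and 4.73 FPKM in knockouts 1 to 4, against 3.76, 4.20, 3.78 and 4.22 FPKM in controls 1 to 4 (log2 difference 0.31, adjusted p = 0.0119). Eif2ak4 was not called among even-numbered libraries (0.17, adjusted p = 0.195) or without control 2 and knockout 3 (0.31, adjusted p = 0.0590). Impact, which encodes an inhibitor of GCN2, had 24.6, 22.8, 23.6 and 26.5 FPKM in knockouts 1 to 4, against 14.7, 14.3, 13.9 and 16.2 FPKM in controls 1 to 4, again without overlap (log2 difference 0.69, SE 0.07, adjusted p = 0.000201).

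Eif2ak2, the double-stranded RNA sensor PKR, averaged 7.95 ± 0.782 FPKM in knockouts and 6.19 ± 0.700 FPKM in controls (log2 difference 0.32, adjusted p = 0.0271). The Eif2ak2 call was lost without knockout 2, 3 or 4 or control 1, 2 or 3 (adjusted p up to 0.0692). It was also lost in the odd and the even subset and without control 2 and knockout 3 (adjusted p = 0.111). Eif2ak3, the endoplasmic reticulum kinase PERK, averaged 6.35 ± 1.23 FPKM in knockouts and 5.75 ± 0.893 FPKM in controls and was not called (log2 difference 0.12, adjusted p = 0.55). The gene that fell was 0610009O20Rik, now named Dele1, whose product relays mitochondrial stress to HRI. It averaged 17.5 ± 0.801 FPKM in knockouts and 21.6 ± 1.55 FPKM in controls (log2 difference -0.28, adjusted p = 0.0114), but not among even-numbered libraries (-0.27, adjusted p = 0.114).

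Of 8 subunits of eIF2 and of its exchange factor eIF2B, 0 were called in limma, and 2 of them, Eif2s2 and Eif2b3, had an unadjusted p under 0.05. Of 5 genes of the eIF2 phosphatases 1 rose, the catalytic subunit gene Ppp1cc, with 58.1 ± 1.04 FPKM in knockouts and 47.7 ± 0.660 FPKM in controls (log2 difference 0.28, adjusted p = 0.00188). Ppp1r15a, which encodes the stress-induced subunit GADD34 and is itself an ATF4 target, had 22.3, 25.6, 26.9 and 21.6 FPKM in knockouts 1 to 4, against 22.9, 36.5, 26.8 and 30.3 FPKM in controls 1 to 4. It was not called (log2 difference -0.25, adjusted p = 0.188).

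Of 7 bZIP partners of ATF4, Nfe2l2 and Nfe2l1 rose and the other 5 were not called (28.6% called, against 32.2% of all tested genes). Nfe2l2, which encodes the antioxidant factor NRF2, averaged 50.8 ± 4.61 FPKM in knockouts and 36.3 ± 5.29 FPKM in controls (log2 difference 0.48, adjusted p = 0.0101). Among even-numbered libraries Nfe2l2 was not called (0.25, adjusted p = 0.149). Nfe2l1 had a log2 difference of 0.19 and lost its call without knockout 2, 3 or 4 or control 1 or 2. Its call was also lost in the odd and the even subset and without control 2 and knockout 3 (adjusted p = 0.125). Cebpb (C/EBP-beta) averaged 37.8 ± 15.6 FPKM in knockouts and 37.9 ± 12.2 FPKM in controls, and its log2 difference of -0.04 (adjusted p = 0.947) was 0.04 after rescaling to TPM.

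**Figure D4:**
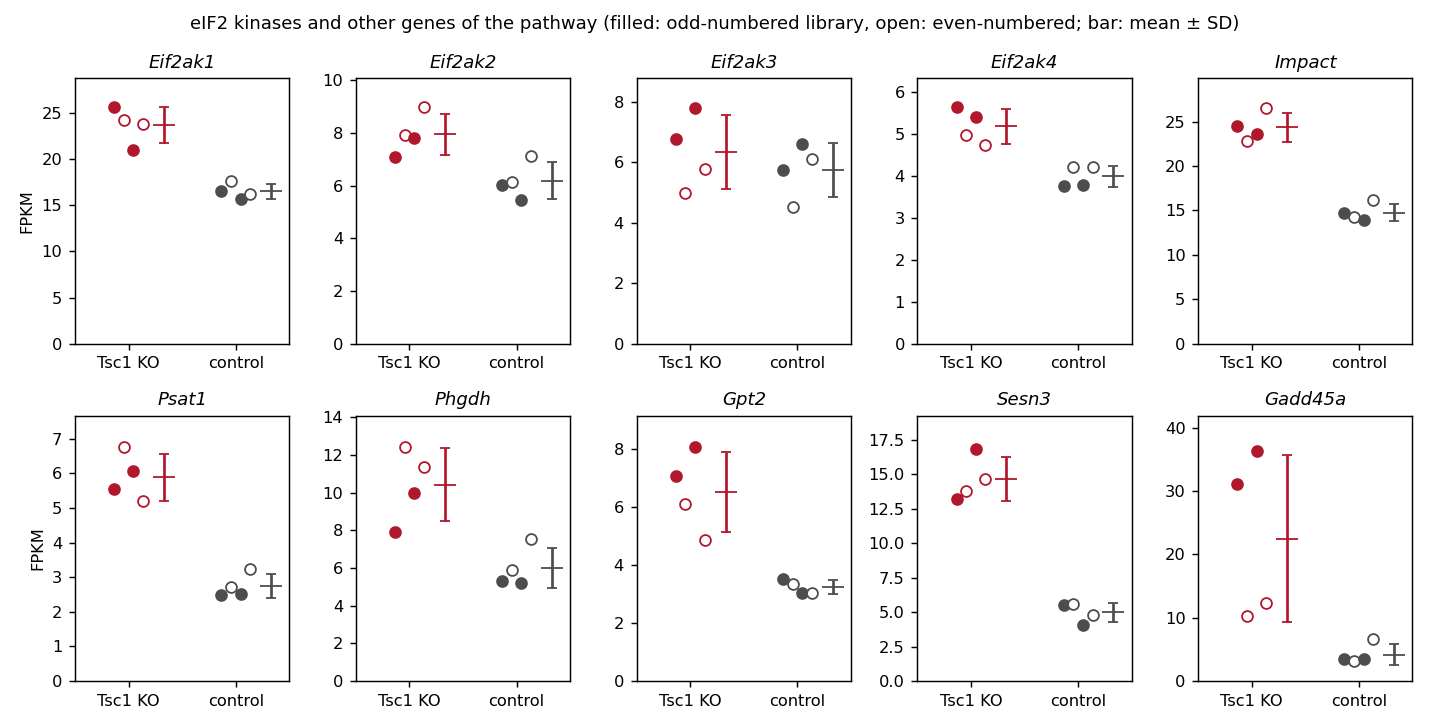
FPKM in each aorta of the 4 eIF2 kinase genes, Impact, Psat1, Phgdh, Gpt2, Sesn3 and Gadd45a, Tsc1 knockouts in red at the left and controls in gray at the right; filled points are odd-numbered and open points even-numbered libraries, and bars give mean ± SD (n = 4 per genotype). The genotypes overlapped for Eif2ak2 and Eif2ak3 and not for the other 8 genes, and Gadd45a reached 31.1 and 36.4 FPKM in knockouts 1 and 3.

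Downstream of ATF4, 44 target genes of 4 lists were tested beside the 10 genes above. Of these 11 rose, 5 fell and 28 were not called (36.4% called, against 32.2% of all tested genes), with a median log2 difference of 0.15. Among 13 tested genes of amino acid synthesis 5 rose and 1 fell (median 0.37), among 7 transporters 1 rose and 2 fell (median -0.11), among 13 genes of cytosolic tRNA charging and export 3 rose and 0 fell (median 0.16), and among 11 other targets 2 rose and 2 fell (median 0.10).

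The genes of amino acid synthesis that rose serve serine and transaminase reactions. Psat1, phosphoserine aminotransferase, had 5.55, 6.75, 6.08 and 5.20 FPKM in knockouts 1 to 4, against 2.47, 2.72, 2.51 and 3.23 FPKM in controls 1 to 4 (log2 difference 0.88, SE 0.10, adjusted p = 0.000302). Gpt2, the mitochondrial alanine aminotransferase, had 7.07, 6.09, 8.06 and 4.86 FPKM in knockouts 1 to 4, against 3.52, 3.34, 3.04 and 3.02 FPKM in controls 1 to 4 (0.81, SE 0.13, adjusted p = 0.00174). Neither set overlapped between genotypes.

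Got1, the cytosolic aspartate aminotransferase, averaged 11.3 ± 1.25 FPKM in knockouts and 6.13 ± 1.82 FPKM in controls (log2 difference 0.81), with control 4 at 8.84 FPKM. Got1 was not called among even-numbered libraries (0.58, adjusted p = 0.146). Phgdh, the first enzyme of serine synthesis, averaged 10.4 ± 1.94 FPKM in knockouts and 6.00 ± 1.08 FPKM in controls (0.70, adjusted p = 0.00659), and Psph, the last, also rose (0.27). Pycr1, a mitochondrial enzyme of proline synthesis, fell to 0.764 ± 0.0699 FPKM in knockouts, against 1.61 ± 0.276 FPKM in controls (-0.56, adjusted p = 0.00418).

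Among transporters, Slc1a4, a carrier of alanine, serine and cysteine, rose to 14.2 ± 0.608 FPKM in knockouts, against 9.86 ± 0.410 FPKM in controls (log2 difference 0.48, adjusted p = 0.000392). Its relative Slc1a5, a glutamine carrier, fell to 56.9 ± 6.76 FPKM in knockouts, against 76.7 ± 8.66 FPKM in controls (-0.42, adjusted p = 0.0151), though not without control 2 and knockout 3 (-0.38, adjusted p = 0.0953). Slc7a1, a carrier of arginine and lysine, fell as well (-0.38, adjusted p = 0.0114), but was not called among even-numbered libraries (-0.27, adjusted p = 0.0833) or without control 2 and knockout 3 (-0.31). Slc7a11, the cystine carrier often used to read ATF4 and NRF2 activity, was under the filter, with at most 0.0589 FPKM in any library. The tRNA genes that rose were Nars (0.29) and Iars (0.26), the asparaginyl and isoleucyl synthetases, and the tRNA export receptor Xpot (0.25). Of these, Iars was not called among odd-numbered libraries or without control 2 and knockout 3 (adjusted p = 0.0644), nor Xpot in either the odd or the even subset.

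Of the other targets Gadd45a, a growth arrest gene shared with p53, had 31.1, 10.2, 36.4 and 12.3 FPKM in knockouts 1 to 4 and 3.40, 3.17, 3.53 and 6.56 FPKM in controls 1 to 4. As for Gdf15, all knockouts were above all controls, and knockouts 1 and 3 stood highest. Gadd45a thus rose by 2.04 on the log2 scale (SE 0.40, adjusted p = 0.00525). Gadd45a differed by 2.96 among odd-numbered libraries and by 1.12 among even-numbered ones, where it was not called (adjusted p = 0.0566). Vldlr, a lipoprotein receptor, rose (0.51, adjusted p = 0.0136).

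Stc2, a secreted glycoprotein, and Eif4ebp1, the translation inhibitor 4E-BP1, fell (log2 differences -0.51 and -0.25). The Stc2 call was kept only without knockout 2 when libraries were left out in turn, and the Eif4ebp1 call only without knockout 2 or control 1. Nupr1, a stress-induced chromatin protein, had 1015, 703, 1189 and 646 FPKM in knockouts 1 to 4 and 594, 642, 574 and 646 FPKM in controls 1 to 4. Its genotypes were apart by knockout 4 over control 4 by under 1 FPKM, and Nupr1 was not called (log2 difference 0.49, adjusted p = 0.0696). Fgf21, another secreted stress hormone, was listed at 0 in all libraries but control 3.

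**Figure D5:**
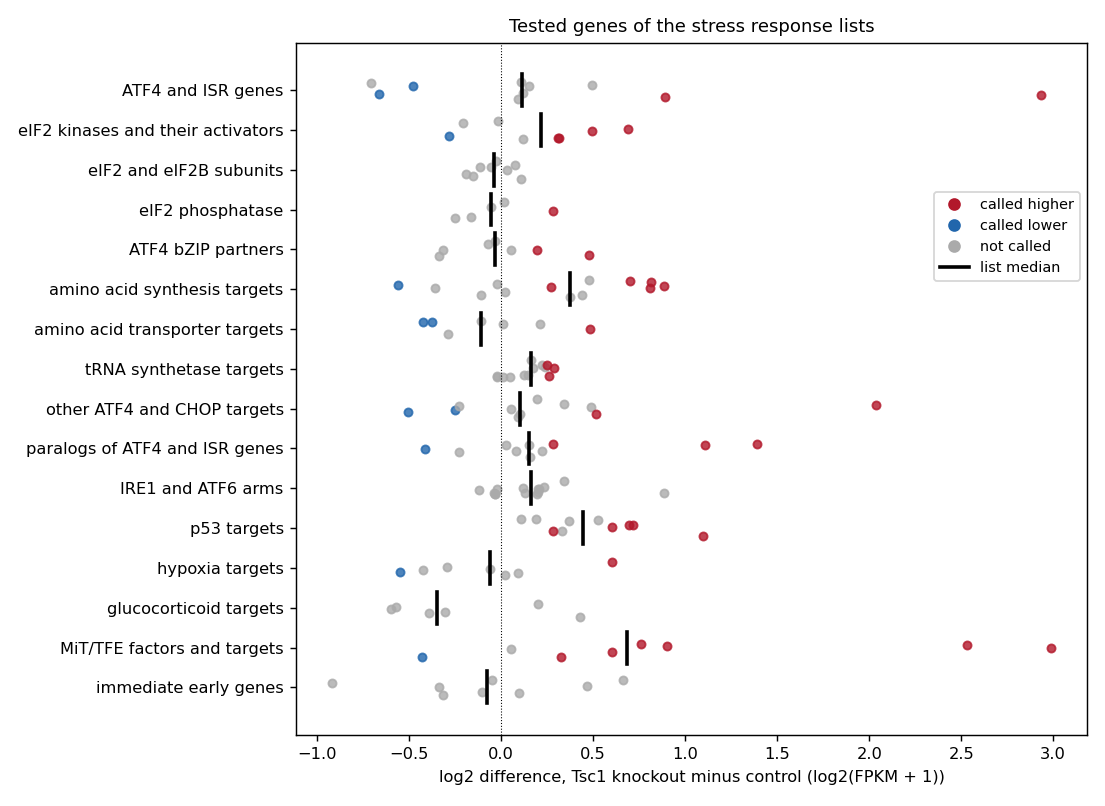
Log2 difference, knockout minus control, on the log2(FPKM + 1) scale for each tested gene of the 10-gene set at the top and of the 15 stress response lists; red points were called higher, blue lower, gray not called, and black bars are list medians. Amino acid synthesis (median 0.37), p53 targets (0.45) and MiT/TFE genes (0.68) lay to the right, and Gadd45a at 2.04 lay alone among other targets.

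Of 10 paralogs of these genes 3 rose and 1 fell (median log2 difference 0.15; 40% called, against 32.2% of all tested genes). Sesn3, a sestrin like Sesn2, had 13.2, 13.8, 16.9 and 14.6 FPKM in knockouts 1 to 4, against 5.51, 5.56, 4.09 and 4.78 FPKM in controls 1 to 4 (log2 difference 1.39, SE 0.10, adjusted p = 5.49e-05). Sesn1 had a log2 difference of 0.28 and lost its call in 6 of the 8 fits that left out 1 library, all but those without knockout 3 or control 2.

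Ddit4l, a paralog of Ddit4 that also restrains mTORC1, had 5.97, 5.67, 5.66 and 4.77 FPKM in knockouts 1 to 4, against 1.65, 1.64, 1.72 and 3.36 FPKM in controls 1 to 4 (log2 difference 1.11, SE 0.16, adjusted p = 0.00131). The groups did not overlap, and control 4 was the highest control, but Ddit4l was not called among even-numbered libraries (0.87, adjusted p = 0.0714). Trib2 fell to 5.25 ± 0.482 FPKM in knockouts, against 7.32 ± 0.653 FPKM in controls (-0.41, adjusted p = 0.00601), but was not called among even-numbered libraries (-0.43, adjusted p = 0.0629).

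Gdf15, Sesn2 and Atf3 are also p53 targets, and of 10 p53 target genes 5 rose and 0 fell (median log2 difference 0.45). Of all tested genes 17.1% were called higher and 15.0% lower. Their summed level was 429, 292, 405 and 279.7 FPKM in knockouts 1 to 4, against 275, 253, 266 and 241 FPKM in controls 1 to 4, highest in the odd-numbered knockouts. Eda2r, a receptor of the TNF family, averaged 3.67 ± 1.57 FPKM in knockouts and 1.09 ± 0.130 FPKM in controls (1.10), Ccng1 (cyclin G1) 59.3 ± 7.57 and 35.6 ± 2.99 FPKM (0.71), and Zmat3 8.90 ± 1.79 and 5.06 ± 0.331 FPKM (0.69). Aen averaged 17.7 ± 4.78 FPKM in knockouts and 11.1 ± 1.31 FPKM in controls (0.60, adjusted p = 0.0265). Its call was kept in 3 of the 8 fits that left out 1 library, and lost without control 2 and knockout 3 (adjusted p = 0.136). Sesn1, the other called gene of this list, kept its call in 2 of those 8 fits. Cdkn1a, the p21 inhibitor of cyclin-dependent kinases, was not called (0.11). It had 96.4, 29.6, 90.2 and 24.4 FPKM in knockouts 1 to 4, against 71.5, 31.8, 58.4 and 35.3 FPKM in controls 1 to 4. Cdkn1a was thus higher in the odd-numbered libraries of both genotypes, and it entered the summed level above.

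Gdf15 is also a target of TFEB and TFE3, which are MiT/TFE factors. Of 8 MiT/TFE factors and targets, 6 rose and 1 fell (87.5% called, against 32.2% of all tested genes). Gpnmb averaged 48.7 ± 12.5 FPKM in knockouts and 5.11 ± 0.412 FPKM in controls (log2 difference 2.99), and Rragd 8.69 ± 2.24 and 0.645 ± 0.140 FPKM (2.53). Sqstm1 averaged 415 ± 19.8 and 223 ± 28.1 FPKM (0.90), and Fnip1 15.0 ± 1.59 and 8.52 ± 1.57 FPKM (0.76). Tfeb was the gene that fell (log2 difference -0.43). Its call was lost in 6 of the 8 fits that left out 1 library, all but those without control 1 or 3. The parts of p53 and MiT/TFE targets in the Gdf15 and Sesn2 values were not tested.

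Among all tested genes, those with the profile nearest to Gdf15 over the 8 libraries were Cmc2, Timp2, Piezo2, Slc43a2 and Hvcn1, at root mean square distances of 0.13 to 0.17 SD units between standardized log2 values. Standardizing removes the size of a change. Ratios of means, knockout over control, ran from 1.19 (Cmc2) to 2.96 (Slc43a2) for these 5 genes, against 16.3 for Gdf15. Timp2, an inhibitor of matrix metalloproteases, had 498, 402, 533 and 399 FPKM in knockouts 1 to 4, against 286, 300.1, 329 and 307 FPKM in controls 1 to 4. Piezo2, a mechanically gated channel, had 4.57, 2.51, 5.77 and 2.64 FPKM in knockouts 1 to 4, against 1.64, 1.32, 1.41 and 1.41 FPKM in controls 1 to 4. The genes nearest to Atf4 were Sh3gl1, Slc7a6os, Zfp592, Rabl6 and Mark2, at 0.13 to 0.19 SD units. Each of these had a ratio of means, knockout over control, between 0.792 and 0.894, against 0.718 for Atf4.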

How the data were processed

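RNA was made from crushed whole thoracic aortas, with 500 ng of total RNA of RIN above 7 used for polyA selection, per the labels' protocols. The deposited values are FPKM, 1 column per library. Per the submitters' processing notes the tools were TopHat2, Cufflinks and Cuffdiff and the build was mm10, with no versions. Which annotation, strand setting and library scaling were used is not given in the sources used here. Absolute depth is unknown. Low FPKM values put relative depth, with control 1 at 1, between 0.763 (knockout 1) and 2.45 (control 3), so low genes are measured least precisely in knockout 1.

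The 12107 genes averaging 1 FPKM or more over all libraries were tested on log2(FPKM + 1), which understates changes of low genes, with limma 3.58.1 in R 4.3.3 (trend, two-sided, genotype as the only term, adjusted by Benjamini-Hochberg over all of them). The procedure was tested on simulated data with independent noise in each library, without the odd and even pattern given above. That test therefore does not check the calls made here. Replicates are taken as separate mice; no label says so, and p-values then rest on the spread between these samples alone, which may be technical. Alternatives were other pseudocounts (0.1 and 0.5), filters (none, 0.1 and 5 FPKM), scalings, weights, variance priors, a replicate block, odd or even numbers and each library left out. Coordinates are from GENCODE M21, on the assembly mm10 denotes. The genes, lists and tests were chosen with earlier results of these data known. In each of the 15 stress response lists the called genes of largest difference were named, up to 4 per direction. Also named were the eIF2 kinases, Ppp1r15a, Cebpb and, for Gdf15 and Atf4, the 5 nearest profiles. Other genes were named after their values were seen.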

Additional observations from a re-analysis of the deposited data

Results flagged for a closer look

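The check took 53 genes in 2 genotypes: the 10 genes, Tsc1, Tsc2 and those picked by the naming rule above, nearest profiles left out. Of the 106 sets of 4 libraries, 9 held a library far from the other 3 by Dixon's gap criterion (95% level, about 1 in 20 by chance). In knockouts these were Atf4 in knockout 4 (74.8 FPKM, the others 97.7 to 101) and Atf3 in knockout 3 (35.1 FPKM, the others 5.34 to 9.26). In controls they were Atf3 in control 2 (134 FPKM, the others 4.05 to 17.0), Atf5 in control 1 (114 FPKM, the others 127 to 129) and Trib3 in control 3 (1.98 FPKM, the others 1.82 to 1.84). Xpot was low in control 1 (8.76 FPKM, the others 9.40 to 9.52). Control 4 was high for Got1 (8.84 FPKM, the others 4.95 to 5.50), Gadd45a (6.56 FPKM, the others 3.17 to 3.53) and Ddit4l (3.36 FPKM, the others 1.64 to 1.72). Control 4 also had the highest summed striated muscle markers (161 FPKM, against 6.79 to 12.5 FPKM in the other controls), and their part in these values was not tested.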

How the results depend on the processing

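Gdf15, Sesn2 and Atf4 kept direction and call in all alternatives that tested them, and Atf5 in all but the odd-numbered libraries. Over all genes 2074 were higher and 1819 lower. After rescaling to TPM without small RNA rows the counts were 2984 and 1366, and without control 2 and knockout 3 together (chosen after seeing the data) 1287 and 1095. Of the 10 genes, 2 were called higher, but 1 with a filter at 5 FPKM, where Sesn2 and others leave the test, and 2 lower, but 1 within the odd-numbered libraries. Over the 15 stress response lists 9 genes were called lower, but 5 with TPM or no filter and 3 without control 2 and knockout 3. With 1 library left out in turn these were 5 to 9 genes (5 without control 2 or knockout 3). Asns was called in 10 of the 22 alternatives that tested it. Signs turned without a call for Ddit3 in even-numbered libraries (-0.26), Chac1 (-0.028) and Ddit4 (-0.28) there, Atf3 in odd-numbered ones (0.50), Eif2ak3 without control 2 and knockout 3 (-0.069), and Cebpb with TPM (0.043) and odd numbers (0.33). With 1 library left out the ranges were -0.0019 to 0.26 for Ddit3, -1.34 to 0.24 for Atf3, -0.055 to 0.46 for Ddit4 and -0.28 to 0.22 for Cebpb. The causes were not tested. The labels do not say what a shared replicate number means, and of the 4 same-numbered pairs 3 had r over 0.1 (up to 0.173) and pair 1 had 0.0656. Since not every pair passed 0.1, the numbers were not taken as pairs. Only 1 of 4 knockouts correlated best with its own number. With the replicate block 2349 genes were higher and 2122 lower, and Asns was called (0.49, adjusted p = 0.0253).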

Other observations

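Hypoxia and glucocorticoids also induce Ddit4. Of 7 tested hypoxia targets 1 rose and 1 fell (28.6% called, against 32.2% of all tested genes), with a median log2 difference of -0.06. Bnip3, a mitochondrial receptor for mitophagy, averaged 36.6 ± 6.11 FPKM in knockouts and 23.8 ± 4.70 FPKM in controls (0.60, adjusted p = 0.0222), and lost its call without knockout 2, knockout 4 or control 2. Adm, the vasodilator adrenomedullin, averaged 11.1 ± 1.60 FPKM in knockouts and 17.1 ± 4.73 FPKM in controls (-0.55, adjusted p = 0.0426), and kept its call only without control 4 when libraries were left out in turn. Of 6 glucocorticoid targets 0 were called in limma, and 0 had an unadjusted p under 0.05. Per1, also a clock gene, had 12.4, 15.7, 8.98 and 10.7 FPKM in knockouts 1 to 4, against 16.0, 40.7, 16.7 and 10.1 FPKM in controls 1 to 4. Of the 6 genes, 4 were highest of all libraries in control 2 (Tsc22d3, Per1, Sgk1 and Klf9), while Fkbp5 was highest in knockout 4 and Zbtb16 in control 1.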
